A study of Mus musculus with 4 samples.

Results

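The cells described here carried transcripts of *Prrx1*, a homeobox gene of the body wall and limb-forming mesoderm, and none of *Foxf1*, the forkhead gene of the mesoderm that lines the gut. They were chosen by counts of unique molecular identifiers (UMIs), the tags that mark single captured transcripts. A cell needed 2 or more UMIs of *Prrx1*, none of *Foxf1* or of the endothelial gene *Cdh5*, and no more than 1 UMI each of the somite gene *Tcf15*, of the allantoic gene *Tbx4* and of the sum of the renal genes *Pax8* and *Pax2*. Of 20198 filtered cells, 316 met these limits. They were 59 and 50 cells in the WT libraries and 109 and 98 cells in the *Grhl3*-null libraries.

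The study compared the caudal parts of WT and *Grhl3*-null mouse embryos at embryonic day (E) 8.5, the stage of 6 to 7 somites, by droplet-based single-cell RNA sequencing (scRNA-seq). *Grhl3* encodes a grainyhead-like transcription factor of surface epithelium that is needed for closure of the neural tube. Embryos of both genotypes came from intercrosses of *Grhl3*+/- mice on a C57BL/6 background, and the null embryos were *Grhl3*-/- in every cell, with no Cre transgene. Cells of 5 WT embryos formed 1 pool, cells of 3 *Grhl3*-null embryos formed the other, and 2 reactions were run on each pool. A comparison of genotypes is therefore one of 2 pools, and libraries of a genotype differ as repeat runs of 1 pool do, so that variation among embryos was not measured. The sexes of the pooled embryos were not balanced. Among the *Prrx1*-positive cells, 9 and 10 WT cells were called male and 43 and 31 female by their *Xist* and Y-linked UMIs, against 57 and 46 male and 40 and 41 female *Grhl3*-null cells. Summed UMIs of the filtered cells were 226723903 and 220747840 for WT and 226059247 and 209833527 for *Grhl3*-null, and the 316 cells held 2414194, 2129572, 4129616 and 3996287 of these in the same order. Any pair of libraries shared between 7 and 16 cell barcodes.

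Lateral plate mesoderm splits around the coelom into a somatic layer, which lies under the surface ectoderm and gives rise to the body wall and the limb buds, and a splanchnic layer, which covers the gut tube. In the somatic layer, *Prrx1*, *Twist1* and *Hand2* are early transcription factors, *Tbx5* and *Pitx1* mark forelimb and hindlimb fields, and *Fgf10* is the signal by which limb mesoderm acts on the overlying ectoderm. Hox genes of successive paralogue groups are switched on along the axis from front to back, so that their levels report axial position.

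*Prrx1* (mm10, chr1:163245119-163313710, minus strand), *Twist1* (chr12:33957671-33959829, plus strand) and the LIM homeobox gene *Lhx1* (chr11:84518284-84525535, minus strand) were the 3 highest-ranked genes of the cells over all other filtered cells once cells with epithelial, neural or endothelial markers were left out, as set out below. The 150 bases before the RefSeq start of each gene are given because the 3 genes were high together. The sequences are from RefSeq (GRCm38.p6), 5′ to 3′ on the strand of the gene, at chr1:163313651-163313800, chr11:84525535-84525684 and chr12:33957521-33957670. The *Prrx1* stretch overlaps the gene as given above from GENCODE, since the RefSeq start lies further inside it. Capitals mark TATAAA or CCAAT on either strand.
Prrx1: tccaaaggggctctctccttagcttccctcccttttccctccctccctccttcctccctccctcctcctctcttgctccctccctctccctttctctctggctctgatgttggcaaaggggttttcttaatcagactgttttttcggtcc
Lhx1: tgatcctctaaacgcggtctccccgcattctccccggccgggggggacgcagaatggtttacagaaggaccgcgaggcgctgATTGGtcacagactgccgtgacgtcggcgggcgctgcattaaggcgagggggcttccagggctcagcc
Twist1: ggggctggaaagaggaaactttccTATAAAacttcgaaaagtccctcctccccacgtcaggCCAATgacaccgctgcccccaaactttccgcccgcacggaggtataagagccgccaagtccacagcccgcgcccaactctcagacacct
CCAAT lay 68 bases before the start of *Lhx1*, on the reverse strand, and 89 bases before that of *Twist1*, which also held TATAAA at 126 bases. Within 250 bases before the start, 33.8% of 32851 RefSeq promoters held CCAAT and 12.4% held TATAAA on either strand. The grainyhead site AACCGGTT was in 0.116% of these promoters and in none of the 3, which says only that these letters are not in the window.

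The label of somatic lateral plate mesoderm was checked against its 4 markers, *Prrx1*, *Hand2*, *Osr1* and *Fgf10*, and against markers of other tissues. Part of the 316 cells went against it. In 92 cells, 3 or more UMIs came from *Epcam*, *Cldn6*, *Sox2*, *Cldn5*, *Kdr* and *Sox17*, genes of gut, surface or neural epithelium and of endothelium. Together with cells among the deepest 5% of their library, 93 cells were set aside, which were 35.6% and 40.0% of the cells in WT and 20.2% and 30.6% in *Grhl3*-null. The other 223 cells (38 and 30 in WT, 87 and 68 in *Grhl3*-null) are called the marker-low subset here. Results are given for all 316 cells and for this subset, and no cell type name is given to either.

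Transcripts of the notochord, the rod of axial mesoderm that secretes Sonic hedgehog, and of the gut were more frequent in WT. Cells with 3 or more UMIs of *Noto*, *Shh* and *Chrd* were 14 of 59 and 11 of 50 in WT (23.7% and 22.0%) and 6 of 109 and 8 of 98 in *Grhl3*-null (5.50% and 8.16%). With *Epcam*, *Cldn6*, *Foxa2* and *Sox17* as gut markers, 20 and 14 WT cells (33.9% and 28%) and 13 and 17 *Grhl3*-null cells (11.9% and 17.3%) had 3 or more UMIs. Endothelial *Kdr*, *Etv2* and *Cldn5* reached that level in 1 and 3 WT cells (1.69% and 6%) and in 7 and 9 *Grhl3*-null cells (6.42% and 9.18%). Notochord and gut transcripts were thus in larger shares of the WT cells, while the endothelial shares of WT 2 and null 1 were close. In the marker-low subset, which was chosen for few such UMIs, 4 cells in all reached the notochord limit.

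The share of such cells depended on the *Prrx1* limit. Of the 382 cells with 1 UMI of *Prrx1* that met the other limits, and so lay just outside the rule, 75.4% had 3 or more UMIs of the 6 markers. Among the 81 cells just inside, with 2 UMIs of *Prrx1*, the share was 56.8%, and among the 235 cells with 3 or more it was 19.6%. The 233 cells with 1 UMI of *Foxf1* that met the other limits had a share of 19.3% and 272 CPM (UMIs of a gene scaled to a common total over the summed cells) of *Twist1*, beside 291 CPM in the cells with 3 or more *Prrx1* UMIs. *Prrx1* itself ranged from 2 to 29 UMIs a cell, with a median of 4 in all 316 cells and 6 in the marker-low subset.

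Of the 4 markers, *Hand2*, *Osr1* and *Fgf10* were not used by the rule. *Hand2*, a basic helix-loop-helix factor of limb and flank mesoderm, had a UMI in 83.9% of the marker-low subset and 69.0% of all 316 cells. *Osr1*, a zinc finger gene of lateral plate and intermediate mesoderm, was detected in 69.1% and 59.5% and *Fgf10* in 38.1% and 32.9%. All 3 were thus present in many of the cells. In 3189 cells with 5 or more UMIs of neural *Sox2* and none of *Prrx1* or *Foxf1*, which were deeper (median 40670 UMIs beside 33319 in the subset), *Hand2* was detected in 3.26%, *Osr1* in 5.96% and *Fgf10* in 5.02%. After each of the 316 cells with at least 20000 UMIs was thinned to that number, *Hand2* was found in 57.2%, *Osr1* in 49.0% and *Fgf10* in 23.3%.

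The same markers were read in *Foxf1*-positive mesoderm, which was taken as the 4703 cells with 2 or more UMIs of *Foxf1*. The limits on *Tcf15*, *Tbx4*, *Cdh5*, *Pax8* and *Pax2* were the same, but no *Prrx1* was required. The 2 classes thus differ in the choice by *Prrx1* as well as by *Foxf1*. There, *Hand2* was detected in 69.1%, *Osr1* in 73.7% and *Fgf10* in 38.3% of cells. For *Hand2* this was 69.1% beside 69.0% of all 316 cells and 83.9% of the subset, from which cells with other-tissue markers had been left out, unlike from the *Foxf1*-positive class. *Fgf10* stood at 20.01, 17.7, 16.0 and 20.6 CPM in the marker-low subset (WT 1, WT 2, null 1 and null 2) and at 20.4, 19.7, 20.2 and 19.8 CPM in the *Foxf1*-positive cells. The ranges of both classes overlapped for *Fgf10*. *Osr1* stood at 65.6, 82.2, 61.8 and 57.2 CPM in the subset and at 93.7, 91.9, 86.6 and 81.6 CPM in the *Foxf1*-positive cells, so that WT 2 of the subset reached just above the lowest *Foxf1*-positive library and the others lay below.

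Other genes separated the classes. These are descriptions, since the cells were chosen by measured values, and folds are ratios of mean CPM over the 4 libraries with 5 CPM added to both sides. For the subset against all other filtered cells, *Prrx1*, which the rule used, led with a fold of 7.20, followed by *Lhx1* (6.26), *Twist1* (5.96), *Alx1* (5.41) and *Col3a1* (4.03). *Lhx1* is known from intermediate mesoderm and from early lateral plate, *Alx1* is an aristaless-like factor of flank and head mesenchyme, and *Col3a1* encodes a fibrillar collagen. The next ranks held the forelimb gene *Tbx5* (3.71), the Wnt ligand *Wnt2* (3.62), the secreted factor gene *Ndnf* (3.57) and the nuclear receptor genes *Nr2f2* (3.53) and *Nr2f1* (3.09). *Prrx2*, the paralogue of *Prrx1*, had a fold of 2.99 and *Hand2* one of 2.97.

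Against *Foxf1*-positive cells the same subset was led by *Twist1* (5.44), *Lhx1* (4.89), the gene *Lix1* (3.85), *Gas1*, which encodes a surface protein that binds hedgehog (3.57), *Alx1* (3.50) and *Ptn*, which encodes the growth factor pleiotrophin (3.36). *Twist1* stood at 276, 363, 374 and 359 CPM in the subset and at 51.7, 46.9, 73.3 and 63.7 CPM in *Foxf1*-positive cells. *Lhx1* stood at 80.8, 90.6, 129 and 148 CPM against 19.3, 15.8, 19.2 and 21.5 CPM. In both genes each library of the subset was above all 4 libraries of the *Foxf1*-positive class. *Hand1*, the paralogue of *Hand2* that is known from splanchnic and extraembryonic mesoderm, went the other way, with 5.603, 24.98, 5.88 and 6.17 CPM against 111, 99.6, 111 and 114 CPM. Only the subset was chosen by *Prrx1*. In cells with 1, 2 and 3 or more *Prrx1* UMIs under the other limits, *Twist1* stood at 21.4, 72.5 and 291 CPM. *Lhx1* stood at 8.84, 41.9 and 101 CPM there. In cells with 1 UMI of *Foxf1* that met the *Prrx1* limit, they stood at 272 and 89.5 CPM. How far the folds of *Twist1* and *Lhx1* follow the choice by *Prrx1* was not tested.

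The same ranking over all 316 cells was led by genes of other tissues beside these. Against *Foxf1*-positive cells its first 5 ranks were the notochord and floor plate signal *Shh* (11.4), the secreted collagen repeat gene *Cthrc1* (6.62), the epithelial genes *Epcam* (6.02) and *Cldn6* (5.95) and the endodermal factor *Foxa2* (5.87). *Shh* stood at 130 and 111 CPM in WT and at 30.3 and 50.3 CPM in *Grhl3*-null. Its values in the subset were 17.6, 15.6, 18.96 and 0.411 CPM. The *Shh* of the 316 cells was therefore mostly in the cells that were set aside.

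The marker lists that the study drew up for its own clusters, on these same samples and so not independent, were read in the subset. Of its 15 genes for intermediate mesoderm, 12 had a fold of 2 or more in the marker-low subset over all other cells, among them *Lhx1*, *Prrx1*, *Nr2f1*, *Nr2f2*, *Hand2*, *Prrx2* and *Alx1*. Of its 15 genes for lateral plate mesoderm none did, and of its 15 genes for the first mesenchyme cluster 3 did (*Hand2*, *Prrx1* and *Dlk1*). Over all 316 cells, 7 of its 15 notochord genes had a fold of 2 or more. The share of all measured genes past that fold is not given here, so these counts are not set against a background. *Prrx1* was used by the rule. The study's intermediate mesoderm list also holds *Hand2*, *Prrx2* and *Alx1*, which are among the somatic and limb genes here. All other cells included the *Foxf1*-positive cells. The counts therefore do not settle the label. The renal genes *Pax2* and *Pax8* were limited by the rule, and their level carries no information here.

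**Figure D1:**
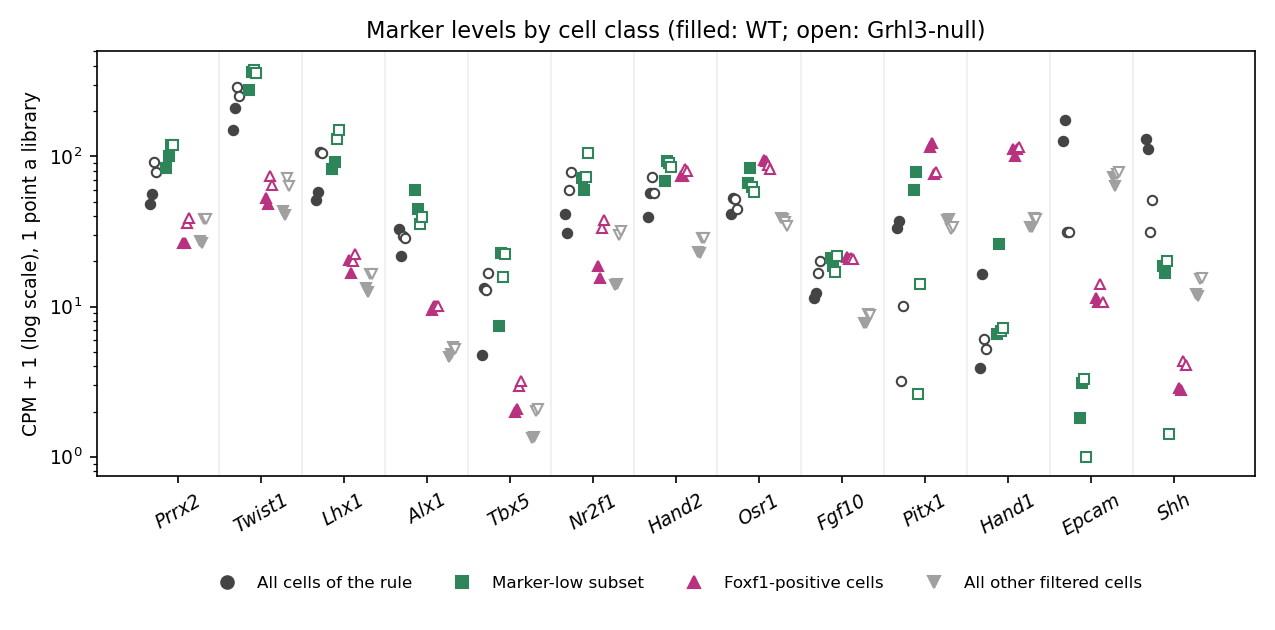
Levels of 13 marker genes in CPM with 1 CPM added (log axis), 1 point per library, filled for WT and open for *Grhl3*-null, in all cells of the rule, the marker-low subset, *Foxf1*-positive cells and all other filtered cells. *Twist1*, *Lhx1*, *Alx1* and *Tbx5* are high in the subset, *Hand2* and *Fgf10* overlap between the subset and *Foxf1*-positive cells, and *Epcam* and *Shh* are lower in the subset than in all cells of the rule.

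The limb field genes were rarely found in the same cell. In the marker-low subset, 77 of 223 cells had a UMI of *Tbx5* (34.5%, 95% Clopper-Pearson interval 28.3 to 41.2) and 31 had a UMI of *Pitx1* (13.9%, 9.64 to 19.1). Both were found in 5 cells, *Tbx5* alone in 72, *Pitx1* alone in 26 and neither in 120. Cells with both numbered 0, 3, 1 and 1 in WT 1, WT 2, null 1 and null 2. Both genes had few UMIs and their shares differed between genotypes, and whether cells with both were fewer than the separate shares would give was not tested. In the *Sox2*-positive cells *Tbx5* was detected in 0.0941% and *Pitx1* in 3.39%. *Foxf1*-positive cells, with a median of 35560 UMIs, had *Tbx5* in 4.15% and *Pitx1* in 53.2%, so that *Tbx5* was the more frequent in the subset and *Pitx1* the less frequent.

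Cells with *Pitx1* alone and cells with *Tbx5* alone also differed in genes that did not define them. Summed over cells, posterior *Hoxb9* was at 344 CPM in the 26 cells with *Pitx1* and at 79.8 CPM in the 72 cells with *Tbx5*, *Hoxc8* at 185 and 24.6 CPM and *Hoxc9* at 92.5 and 10.6 CPM. The more anterior *Hoxb4* was at 59.5 and 50.3 CPM. *Lhx1* was at 45.1 and 144 CPM and *Twist1* at 238 and 422 CPM. These sums pool libraries of both genotypes, with 13, 5, 4 and 4 *Pitx1* cells and 7, 6, 32 and 27 *Tbx5* cells from WT 1, WT 2, null 1 and null 2, and were not tested. Within WT, *Hoxb9* was at 367 CPM in cells with *Pitx1* alone and 225 CPM in cells with *Tbx5* alone, *Hoxc8* at 212 and 63.6 CPM, *Lhx1* at 38.5 and 104 CPM and *Twist1* at 234 and 359 CPM. Within *Grhl3*-null the same pairs were 292 and 50.8 CPM, 126 and 16.8 CPM, 59.7 and 152 CPM, and 246 and 435 CPM. *Hoxb4* was at 62.5 and 36.3 CPM in WT and at 52.7 and 53.1 CPM in *Grhl3*-null. In both genotypes *Hoxb9* and *Hoxc8* were higher beside *Pitx1*, and *Lhx1* and *Twist1* higher beside *Tbx5*. Other pairs of genes overlapped widely: *Hand2* and *Lhx1* were both detected in 170 of the 223 cells, and *Hand2* and *Osr1* in 133.

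As a check of the genotype labels, *Grhl3* (chr4:135541888-135573630, minus strand) was read in all other filtered cells. The WT libraries held 873 and 802 UMIs of it, the *Grhl3*-null libraries 12 and 13. In the 316 cells it had 5, 1, 0 and 1 UMIs, and in the marker-low subset it had none in any library, which allows up to 3 UMIs a library. In CPM the 316 cells were at 2.07, 0.470, 0 and 0.250, beside 3.89, 3.67, 0.0541 and 0.0632 in all other cells. Its paralogue *Grhl2*, an epithelial gene, was the one gene of the 3 *Grhl* genes with enough counts for a test in the 316 cells, with 6.63, 13.1, 3.15 and 1.75 CPM, and in the subset it had 1, 1, 0 and 2 UMIs.

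The first comparison of genotypes was the number of cells. The 316 cells were 1.08% (0.824 to 1.39) and 0.977% (0.726 to 1.29) of the filtered cells in WT and 2.25% (1.85 to 2.71) and 2.05% (1.67 to 2.49) in *Grhl3*-null, with 95% Clopper-Pearson intervals that cover counting error only. Both *Grhl3*-null libraries were above both WT libraries, and the intervals did not overlap. The means were 1.03% ± 0.0732 and 2.15% ± 0.142 (SD, n = 2 libraries each), a ratio of 2.09, with p = 0.333 in a two-sided exact permutation test, which is the smallest p that 2 libraries against 2 allow. The marker-low subset made up 0.696% and 0.586% of the WT cells and 1.80% and 1.42% of the *Grhl3*-null cells. Its ratio was 2.51.

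The higher share in *Grhl3*-null was found in each sex. The ratio was 2.92 in male cells and 2.11 in female cells for all cells of the rule, and 4.40 and 2.42 for the marker-low subset. It was 2.40 after all cells with at least 20000 UMIs were thinned to that number (619, 407, 251 and 305 shallower cells left out), beside 2.12 for the same cells without thinning. Thinned cells can lose UMIs of *Foxf1* and the other limited genes and so enter the rule. The cells that met it were 57, 57, 147 and 113 after thinning and 53, 44, 101 and 94 before. A limit of 1 *Prrx1* UMI, which let in many cells with other-tissue markers, gave 1.53. Whether the pools differed in the number of such cells in the embryo, or in how the caudal part was cut, dissociated and captured, cannot be told apart, nor can fewer cells of a type and less *Prrx1* RNA per cell in a class defined by *Prrx1*.

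**Figure D2:**
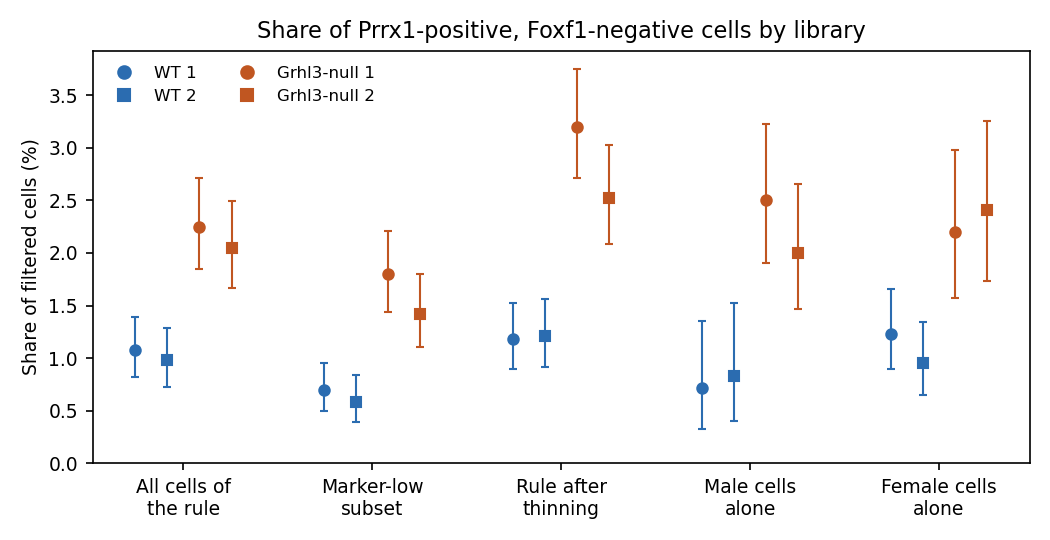
Share of filtered cells (%) that met the rule in each library, with 95% Clopper-Pearson intervals as bars, for all cells of the rule, the marker-low subset, the rule after thinning to 20000 UMIs, and male or female cells alone. Both *Grhl3*-null libraries lie above both WT libraries in each of the 5 settings.

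Genes were then compared between genotypes on UMIs summed over the cells of a library, with edgeR's quasi-likelihood test and a Benjamini-Hochberg adjusted p under 0.05 as the limit for a call. Fold changes are log2 of *Grhl3*-null over WT, with standard errors. Over all 316 cells, 226 of 10367 genes tested (2.18%) rose and 468 (4.51%) fell in *Grhl3*-null. DESeq2 called 193 genes in these cells (49 higher and 144 lower), and edgeR with no filter on low counts called 217. In the marker-low subset, with fewer cells, 68 of 8972 genes (0.758%) rose and 128 (1.43%) fell, of which 15 and 37 were past a log2 fold change of 1 in size. The calls had 132 genes in common, 19.02% of those in the 316 cells and 67.3% of those in the subset, and 131 of them had the same direction. DESeq2 called 49 genes in the subset, and of the genes of the patterning, signalling and matrix lists named below these were *Hoxb9* and *Vim*.

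In the 316 cells, 248 calls were past a log2 fold change of 1 in size, and genes of other tissues were among the changed genes. Of 9 genes listed for gut epithelium, 7 fell (median log2 fold change -1.61, beside 0.00 over all genes tested). *Epcam*, an epithelial adhesion gene, stood at 126 and 173 CPM in WT and at 30.5 and 30.3 CPM in *Grhl3*-null, a log2 fold change of -2.29 ± 0.13. The keratin genes *Krt19* (-1.62), *Krt18* (-1.23) and *Krt8* (-1.19) fell with it. Of 5 notochord genes 4 fell, *Shh* by 1.60 and *Noto* by 2.56 on the log2 scale, and of 6 tested endothelial genes 3 rose, among them *Kdr* (2.85), a receptor for vascular endothelial growth factor, and the transcription factor gene *Etv2* (3.44).

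These directions went with the numbers of cells that held such transcripts, given above, and their part in the changes was not tested. In the subset, which was chosen for low counts of some of these genes, the gut, notochord and endothelial lists had 4, 3 and 1 genes with enough counts, and edgeR called 0 of them, with 1, 2 and 0 at an unadjusted p under 0.05 and 0 by DESeq2. The 3 notochord genes tested there had a median log2 fold change of -0.68, beside -1.60 over the 5 tested in all 316 cells, and the list summed to 74.4, 84.3, 64.4 and 17.3 CPM. *Krt8* stood at 32.8, 172, 102 and 88.8 CPM there, and *Krt18* at 59.2, 202, 110 and 106 CPM. The groups overlapped in both genes. The subset was chosen for low counts of *Epcam*, *Cldn6*, *Sox2*, *Cldn5*, *Kdr* and *Sox17*, so that low levels of these 6 genes are set by the choice. The remaining results are given for the subset unless all 316 cells are named.

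Of the 4 markers, the 3 that the rule did not use did not pass the test of genotype in the marker-low subset. *Prrx1*, which chose the cells and is given as a description, stood at 173, 204, 203 and 207 CPM. *Hand2* stood at 67.2 and 91.6 CPM in WT and at 89.9 and 84.3 CPM in *Grhl3*-null (log2 fold change 0.14 ± 0.14, adjusted p = 0.775), with groups that overlapped. *Osr1* (-0.31 ± 0.15, adjusted p = 0.374) and *Fgf10* (-0.09 ± 0.28, adjusted p = 0.940) did not pass the test either. Their shares of cells with a UMI are in the plot of detection by library.

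Among 30 genes listed for somatic mesoderm and limb, 25 were tested in the subset, of which 2 rose and 2 fell (median 0.10). *Meis2*, which encodes a TALE-class homeodomain protein, rose by a small amount (0.34 ± 0.10, adjusted p = 0.0431 by edgeR and 0.351 by DESeq2). *Twist2*, the paralogue of *Twist1*, was lower, at 18.4 and 7.29 CPM against 2.94 and 3.29 CPM (-2.12 ± 0.46). *Twist1* itself did not pass the test in the subset (0.19 ± 0.09, adjusted p = 0.375), although it did over all 316 cells (0.60 ± 0.11), where *Prrx2* (0.72 ± 0.12) also rose. *Alx1* stood at 58.4 and 43.7 CPM in WT and at 34.6 and 38.2 CPM in *Grhl3*-null and did not pass the test (-0.54 ± 0.18, adjusted p = 0.133).

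*Lhx1* was higher in *Grhl3*-null, at 80.8 and 90.6 CPM against 129 and 148 CPM (0.67 ± 0.13, adjusted p = 0.000685 by edgeR and 0.0629 by DESeq2). It was the one called gene of 3 tested intermediate mesoderm genes. Of 4 tested paraxial mesoderm genes, *Foxc1*, a forkhead gene of somites, and *Aldh1a2*, which makes retinoic acid, rose. *Foxc1* stood at 24.0 and 8.33 CPM in WT and at 28.1 and 44.0 CPM in *Grhl3*-null (1.02 ± 0.28), and *Aldh1a2* at 23.2 and 43.7 CPM and at 52.0 and 70.7 CPM (0.89 ± 0.20). The WT libraries differed from each other by more than their distance to the nearest *Grhl3*-null library in both genes. In female cells alone *Aldh1a2* had a log2 fold change of -1.03 (adjusted p = 0.295) and in male cells alone one of 0.72 (adjusted p = 0.636). The remaining 11 tested genes of the retinoic acid list did not pass.

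*Pitx1* (chr13:55825051-55836192, minus strand), the homeobox gene of the hindlimb field, fell. It stood at 58.4 and 77.0 CPM in WT and at 1.63 and 13.2 CPM in *Grhl3*-null, with groups far apart, and its log2 fold change was -3.31 ± 0.30 (adjusted p = 2.15e-11). DESeq2 gave it a wider standard error (-3.21 ± 1.24, unadjusted p = 0.00951) and no adjusted p, as for 12738 of 15280 genes in the subset. Cells with a UMI of *Pitx1* were 13 of 38 (34.2%) and 8 of 30 (26.7%) in WT and 5 of 87 (5.75%) and 5 of 68 (7.35%) in *Grhl3*-null. The *Grhl3*-null shares were above the 3.39% found in *Sox2*-positive cells, which were deeper. In null 2, 24 UMIs of *Pitx1* came from 2 male cells. *Tbx5*, the forelimb gene, was detected in 18.4% and 30% of WT cells and in 37.9% and 41.2% of *Grhl3*-null cells, and its level did not pass the test (0.40 ± 0.35, adjusted p = 0.720).

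**Figure D3:**
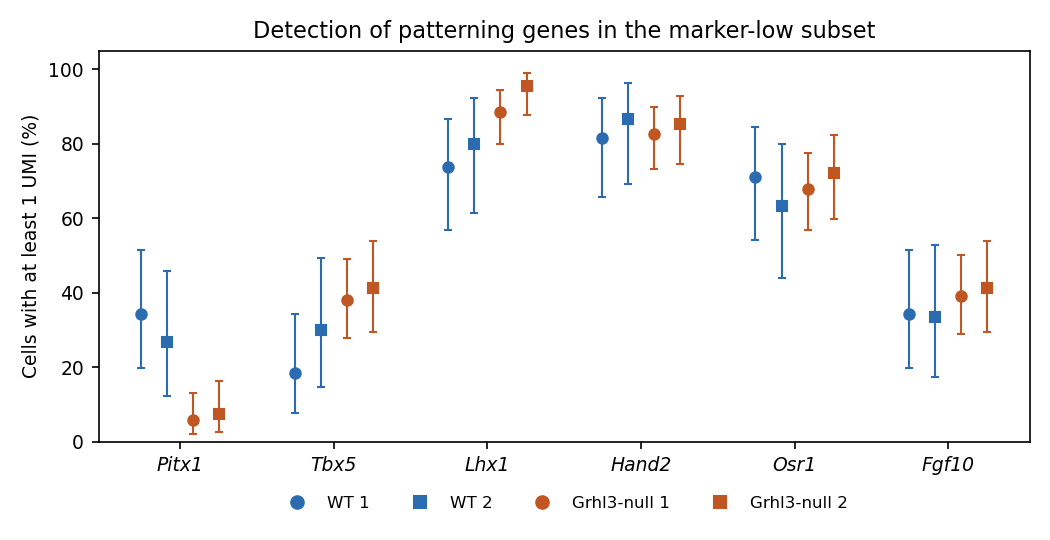
Share of cells (%) of the marker-low subset with at least 1 UMI of 6 patterning genes in each library, with 95% Clopper-Pearson intervals. *Pitx1* is at 34.2% and 26.7% in WT and at 5.75% and 7.35% in *Grhl3*-null, *Tbx5* and *Lhx1* lie higher in both *Grhl3*-null libraries, with intervals that overlap those of WT except for *Lhx1* in WT 1 and null 2, and *Hand2*, *Osr1* and *Fgf10* lie close together.

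Of the 39 Hox genes, 24 were tested in the subset, of which 7 fell and none rose in edgeR's test, where 0 were higher at an unadjusted p under 0.05 (median -0.16). DESeq2 called 1 of them, *Hoxb9*. It gave the other called Hox genes no adjusted p. Their log2 fold changes by DESeq2 were near those of edgeR, as for *Hoxc9* (-2.65), *Hoxc8* (-1.48) and *Hoxa9* (-1.95). All 7 belong to paralogue groups 6 to 9. *Hoxc9* (chr15:102976439-102985099, plus strand) stood at 57.6 and 46.8 CPM in WT and at 7.84 and 9.05 CPM in *Grhl3*-null (-2.67 ± 0.25), and *Hoxc8* at 89.6 and 91.6 CPM and at 32.4 and 32.9 CPM (-1.49 ± 0.16). *Hoxb9*, the Hox gene with the highest level of these, stood at 229 and 200 CPM in WT and at 123 and 99.1 CPM in *Grhl3*-null (-0.97 ± 0.11). In all 3 genes the groups lay apart by more than the spread within either. *Hoxa9* (-1.96), *Hoxd9* (-1.54), *Hoxc6* (-1.46) and *Hoxa7* (-0.81) were the others.

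The change was along the Hox series and not over all of it. Summed over groups 6 to 9, the level was 666 and 615 CPM in WT and 329 and 310 CPM in *Grhl3*-null, while groups 1 to 5 summed to 537 and 583 CPM and to 589 and 580 CPM. *Hoxb4* had a log2 fold change of 0.04 ± 0.16 (adjusted p = 0.961). Within groups 6 to 9, *Hoxb6* (0.26 ± 0.25), *Hoxb7* (-0.21 ± 0.35) and *Hoxb8* (-0.20 ± 0.19) did not pass the test. Groups 10 to 13 were low in the subset, at 16.0, 7.29, 3.595 and 0.822 CPM, and in *Foxf1*-positive cells they summed to 147 and 166 CPM in WT and to 39.2 and 38.4 CPM in *Grhl3*-null. In *Foxf1*-positive cells the sums over groups 6 to 9 were 1078, 1138, 1170 and 1113 CPM, above those of the subset and with overlapping genotypes.

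**Figure D4:**
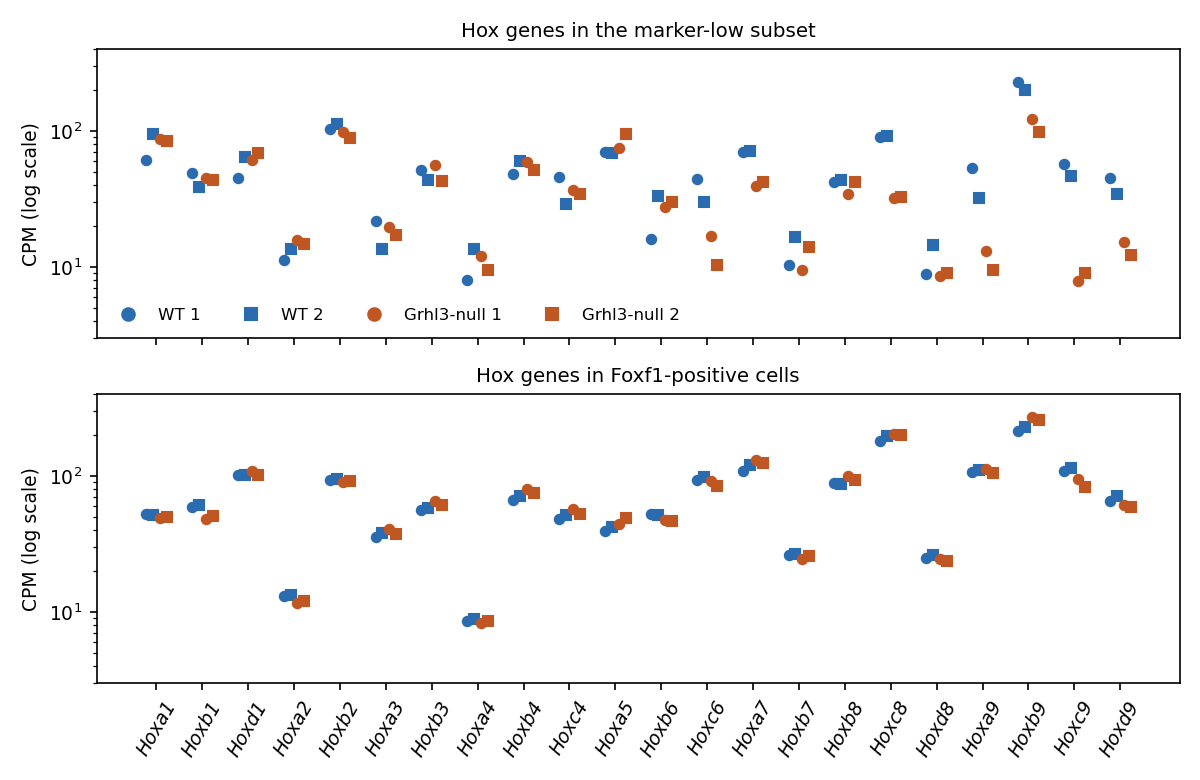
CPM (log axis) of the 22 Hox genes with a mean of at least 10 CPM in the marker-low subset, ordered by paralogue group, 1 point per library, in the subset (top) and in *Foxf1*-positive cells (bottom). In the subset *Hoxc6*, *Hoxa7*, *Hoxc8* and the 4 genes of group 9 are lower in *Grhl3*-null, and the genes of groups 1 to 5 lie closer together.

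The falls of *Pitx1* and of the called Hox genes other than *Hoxa7* passed the test in female cells alone, and whether the sexes differed was not tested. The subset held 4 and 6 male WT cells, 29 and 18 female WT cells, 47 and 35 male *Grhl3*-null cells and 32 and 27 female *Grhl3*-null cells. *Pitx1* was detected in 19 of 47 female WT cells and 6 of 59 female *Grhl3*-null cells, against 0 of 10 male WT cells, which allows a share of cells with a UMI, not of cells that express the gene, of up to 30%, and 4 of 82 male *Grhl3*-null cells. Hox groups 6 to 9 summed to 774 and 621 CPM in female WT cells and to 336 and 384 CPM in female *Grhl3*-null cells. In male cells the sums were 108 and 327 CPM in WT and 335 and 254 CPM in *Grhl3*-null, with groups that overlapped.

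With female cells alone, *Pitx1* (-4.10 ± 0.33, adjusted p = 3.18e-07), *Hoxc9* (-2.92 ± 0.30, adjusted p = 1.14e-05) and *Hoxc8* (-1.49 ± 0.22, adjusted p = 0.000814) fell. *Hoxa7* did not pass edgeR's test there (-0.76 ± 0.20, adjusted p = 0.0670). With male cells alone *Pitx1* and *Hoxc9* had too few counts, and *Hoxc8* (1.73 ± 0.79, adjusted p = 0.595), *Hoxb9* (0.25 ± 0.44, adjusted p = 0.957) and *Hoxa7* (0.50 ± 0.48, adjusted p = 0.887) had the opposite sign and did not pass. *Hoxd9* had the same sign in male (-0.93 ± 0.63, adjusted p = 0.787) as in female cells (-1.46 ± 0.28), and *Hoxa9* and *Hoxc6* had too few counts in male cells. The male WT cells held 2 and 25 UMIs of *Hoxb9*. Cells of a sex come from the embryos of that sex in a pool, so that sex and embryo cannot be told apart here, and the position of the cut through each embryo was not recorded in the labels. *Lhx1* was likewise higher in female *Grhl3*-null cells (0.86 ± 0.16) and not in male cells (-0.22 ± 0.23, adjusted p = 0.901).

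**Figure D5:**
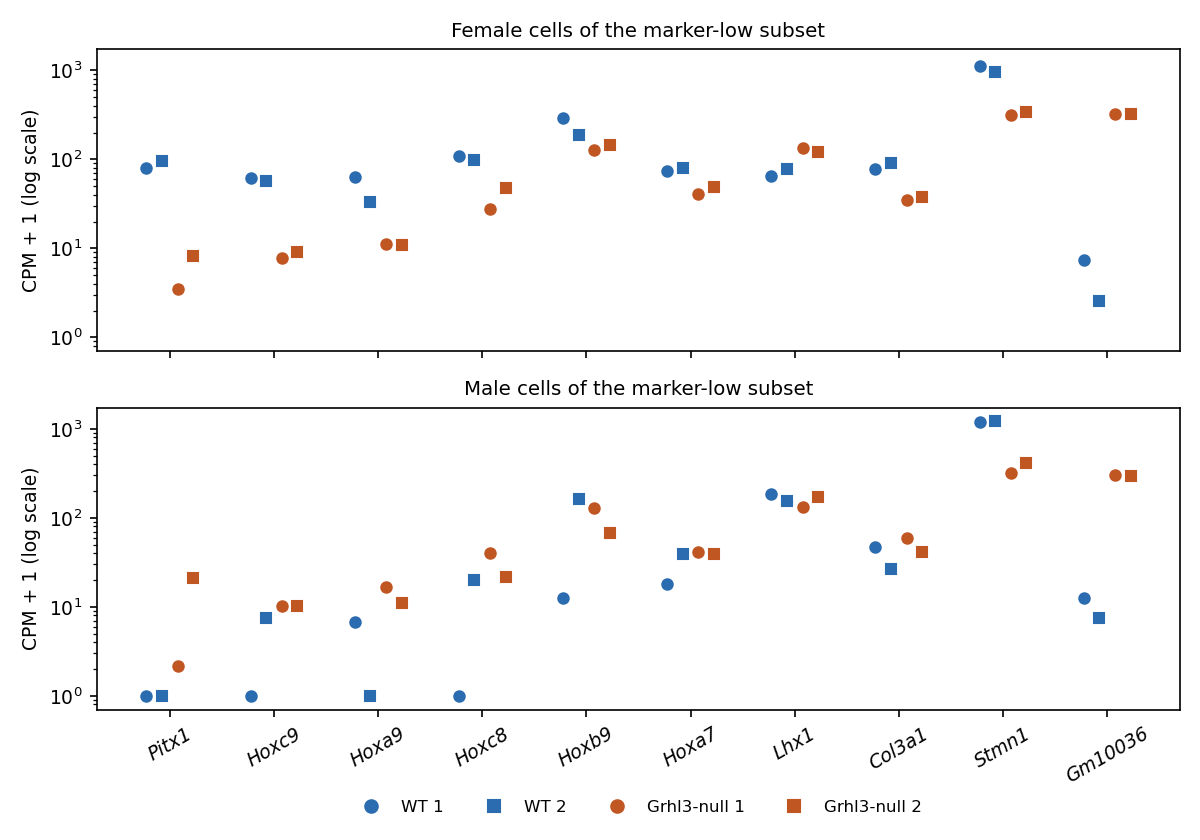
Levels in CPM with 1 CPM added (log axis) of 10 genes in female (top) and male (bottom) cells of the marker-low subset, 1 point per library. *Pitx1*, *Hoxc9* and *Hoxc8* are lower in *Grhl3*-null in female cells, where the WT values rest on 29 and 18 cells, and not in male cells, where they rest on 4 and 6 cells, whereas *Stmn1* is lower and *Gm10036* higher in both sexes.

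Few genes of the signalling lists passed the test, as few of all genes tested in the subset did (0.758% higher and 1.43% lower). Of 22 tested genes of bone morphogenetic protein (BMP) signalling, 14 of fibroblast growth factor signalling and 10 of hedgehog signalling, edgeR called 0 in the subset, with 3, 1 and 1 at an unadjusted p under 0.05 and 0 by DESeq2. Of 26 genes of the Wnt list 2 fell, and both encode R-spondins, which raise Wnt signalling. *Rspo3* stood at 77.6 and 39.6 CPM in WT and at 26.2 and 33.7 CPM in *Grhl3*-null (-1.06 ± 0.21), and *Rspo1* at 20.01 and 12.5 CPM and at 3.595 and 5.76 CPM (-1.88 ± 0.40). *Rspo3* had opposite signs in the sexes (-2.69 in male and 1.27 in female cells, the latter with adjusted p = 0.138), and 43 of its UMIs came from 4 male cells of WT 1. Over all 316 cells the BMP antagonist *Nog* (-1.44 ± 0.19) and *Fgf8* (-0.62 ± 0.14) fell, both of which are known from axial and caudal tissue.

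Of 26 tested matrix and cell structure genes, edgeR called 1 higher and 2 lower in the subset, and 23 did not pass. Of all genes tested there, 0.758% were higher and 1.43% lower. DESeq2 called 1 gene of the list, lower. *Col3a1* (66.4 and 78.1 CPM in WT, 49.7 and 40.7 CPM in *Grhl3*-null, -0.67 ± 0.16) and the intermediate filament gene *Vim* (184 and 196 CPM, 124 and 122 CPM, -0.64 ± 0.11) fell. *Hapln1*, which encodes a hyaluronan link protein, rose (0.77 ± 0.19). *Col3a1* fell in female cells alone (-1.20 ± 0.20) and had a log2 fold change of 0.44 in male cells alone (adjusted p = 0.895). *Sox9*, a factor of cartilage and neural crest, rose in the subset, at 20.01 and 14.6 CPM against 53.3 and 23.0 CPM (1.14 ± 0.30), the 2 null libraries being further from each other than null 2 was from WT.

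Genes of glycolysis were lower in *Grhl3*-null by small folds. Of 19 tested in the subset 10 fell (median -0.39), with 8 of the list lower by DESeq2, and the list summed to 14260 and 13468 CPM in WT and to 11085 and 11105 CPM in *Grhl3*-null. *Ldha*, lactate dehydrogenase, stood at 2438 and 2185 CPM against 1816 and 1714 CPM (-0.41 ± 0.07), and *Pgk1* at 989 and 904 CPM against 684 and 603 CPM (-0.58 ± 0.08). *Gapdh* (-0.26 ± 0.06) and *Pkm* (-0.40 ± 0.07) also fell. The median share of mitochondrial UMIs in a cell of the subset was 3.23% and 3.24% in WT and 4.08% and 4.10% in *Grhl3*-null. Whether this share was tied to the glycolysis genes was not tested. By sex, *Ldha* had a log2 fold change of -0.43 in female cells and of -0.04 in male cells (adjusted p = 0.972). The sign of *Pgk1* turned in male cells alone, as listed below. The immediate early gene *Jun*, which cell handling can induce, fell too (-1.31 ± 0.21), the one called of 4 tested genes of dissociation. With male cells alone *Jun* turned sign. Its part in the other changes was not tested.

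By edgeR, of 19 imprinted and growth genes *Dlk1* (-0.54 ± 0.14), *Meg3* (-0.35 ± 0.08) and *Gnas* (-0.30 ± 0.07) fell and *Phlda2* rose (0.63 ± 0.13), while DESeq2 called none of the 4 (adjusted p = 0.403, 0.0629, 0.0695 and 0.0968). *Meg3*, a long noncoding RNA, stood at 624 and 718 CPM in WT and at 502 and 565 CPM in *Grhl3*-null. The signs of *Dlk1* and *Meg3* turned in male cells alone, as listed below. In 28 genes of replication and mitosis edgeR made 0 calls, with 4 at an unadjusted p under 0.05, 0 by DESeq2 and a median of -0.05. The 3 haemoglobin genes tested were not called and summed to 30.4, 38.5, 29.7 and 39.9 CPM.

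By size, *Fdps*, which encodes an enzyme of isoprenoid synthesis, was among the strongest falls at 239 and 190 CPM against 56.9 and 62.9 CPM (-1.88 ± 0.12, adjusted p = 2.24e-16). The unnamed transcript *2610528A11Rik* stood at 93.6 and 71.8 CPM against 13.1 and 7.81 CPM (-2.98 ± 0.22). In female cells alone the log2 fold changes were -2.28 and -3.86. In the 10 male WT cells *Fdps* had 9 and 16 UMIs (log2 fold change -0.26 ± 0.33 in male cells) and *2610528A11Rik* had none, and a difference between the sexes was not tested. *Mfap4* (-1.83), a microfibril-associated gene, *Arl4d* (-2.03) and the Nodal antagonist *Lefty2* (-6.41, with 6.40 and 38.5 CPM in WT and 0 and 0.411 CPM in *Grhl3*-null) fell as well.

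Other strong changes involved genes close to *Grhl3* or near copies of such genes. *Stmn1* (chr4:134468320-134473843) fell from 1140 and 1032 CPM to 308 and 373 CPM (-1.70 ± 0.08), *Hdac1* (chr4:129516104-129542713) had a log2 fold change of -1.35 ± 0.13 and *Rpl11* (chr4:136028265-136053428) one of -0.35 ± 0.06. All 3 lie on the chromosome of *Grhl3*. *Gm10036* rose from 7.20 and 2.08 CPM to 315 and 310 CPM (5.93 ± 0.21) and *Gm10093* from 1.60 and 1.04 CPM to 48.7 and 43.2 CPM (5.00 ± 0.42). The *Gm10036* transcript matched *Rpl11* at 99.4% identity over 94.2% of its length, and *Gm10093* matched *Hdac1* at 99.4% over 100%, so that reads of each pair can be assigned to either gene and the values of both are uncertain. *Gm10282* (1.99 ± 0.32) matched *Hmgn2* in the same way. These changes were also present in *Foxf1*-positive cells (*Stmn1* -1.59 and *Gm10036* 6.26), and *Stmn1* fell and *Gm10036* rose in male and in female cells of the subset.

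To see which differences were larger or smaller in these cells than in related ones, the genotype effect was compared by an interaction term that kept each library as a block. Against *Foxf1*-positive cells, 464 of 14256 genes (3.25%) differed for all 316 cells and 79 of 12897 (0.613%) for the marker-low subset. Against all other filtered cells the numbers were 777 of 16358 (4.75%) and 138 of 14392 (0.959%). Without 1 library the counts over all 316 cells were 286 to 555 against *Foxf1*-positive cells and 353 to 556 against all others. For the subset, possible doublets were left out of the other class too, by the same limits, and effects in *Foxf1*-positive cells are given for that reduced class. Each difference comes from a joint fit, whose scaling moved it by a median of 0.03 from the difference of the separate effects. *Pitx1* had a log2 fold change of -1.01 in *Foxf1*-positive cells and -3.31 in the subset, with a difference of -2.28 ± 0.29 (adjusted p = 3.11e-07).

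The 7 Hox genes that fell in the subset differed in the same test, while *Hoxb6* (adjusted p = 0.785), *Hoxb7* (1.00), *Hoxb8* (0.879) and *Hoxd8* (0.979) of the same paralogue groups did not pass it. Against all other filtered cells *Hoxd9* did not pass the interaction test (-0.78 ± 0.23, adjusted p = 0.0756), while the others of the 7 did. The effect on *Hoxb9* was -0.97 in the subset and 0.22 in *Foxf1*-positive cells (difference -1.17 ± 0.11, adjusted p = 7.47e-11), that on *Hoxc8* was -1.49 and 0.034 (-1.505 ± 0.16), that on *Hoxc9* was -2.67 and -0.51 (-2.15 ± 0.24), and that on *Hoxa9* was -1.96 and -0.16 (-1.78 ± 0.25). *Col3a1* had effects of -0.67 in the subset and 0.88 in *Foxf1*-positive cells (difference -1.53 ± 0.17). In the whole *Foxf1*-positive class *Pitx1* was detected in 403 of 726 male WT cells and 331 of 1000 male *Grhl3*-null cells, and in 878 of 1406 and 611 of 1009 female cells, so that there the genotypes lay further apart in male cells, which was not tested. That class held more male WT cells, 379 and 347, and within that class the sex split of Hox groups 6 to 9 was 1308 and 1343 CPM in male WT, 1027 and 932 CPM in male *Grhl3*-null, 947 and 1012 CPM in female WT and 1300 and 1241 CPM in female *Grhl3*-null. The genotype difference there was thus of opposite sign in the sexes, with groups that did not overlap in either.

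*Twist1* had a log2 fold change of 0.72 in the *Foxf1*-positive cells of this comparison and of 0.19 in the subset, a difference of -0.50 ± 0.11 (adjusted p = 0.00676). Over all 316 cells the difference in *Twist1* had the other sign and did not pass (0.14, adjusted p = 0.615). *Aldh1a2* (1.03 ± 0.22) and *Foxc1* (1.21 ± 0.29) differed in the other direction, being higher in *Grhl3*-null in the subset than the *Foxf1*-positive cells would give. Small differences in *Pgk1* (-0.55 ± 0.07) and *Meg3* (-0.57 ± 0.07) passed the same test.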

How the data were processed

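The authors prepared 3′ scRNA-seq libraries with a 10X Genomics kit, processed the reads with Cell Ranger (genome build mm10) and deposited matrices of UMI counts, which were used unchanged. The limits of 3000 genes and 7500 UMIs or more and of 7% mitochondrial UMIs or less kept 5459 and 5116 of 6186 and 5698 WT cells and 4842 and 4781 of 6177 and 6178 *Grhl3*-null cells. Genotype and replicate of each library are those of its label. Libraries of a genotype differed by more than sampling noise over the *Prrx1*-positive cells (chi-square per degree of freedom 1.58 in WT and 1.83 in *Grhl3*-null) and entered the tests as 2 each. They are repeat runs of 1 pool, so that every p-value here measures the spread between runs, not between embryos.

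No doublet caller was run. Cells with 3 or more UMIs of *Epcam*, *Cldn6*, *Sox2*, *Cldn5*, *Kdr* and *Sox17*, or above the 95th percentile of UMIs of their library, were treated as possible doublets and left out of the marker-low subset. This subset, the tests on it and its split by sex were added after results had been seen. A cell counted as male if 4 Y-linked genes gave 2 or more UMIs and *Xist* no more than 2, and as female if *Xist* gave 3 or more and the Y-linked genes no more than 1.

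UMIs were summed per library and class, normalised by TMM after filterByExpr and tested with edgeR 4.0.16 in R 4.3.3 (quasi-likelihood test, Benjamini-Hochberg adjustment over all genes tested), without covariates for genotype and with the library as a block for interactions. CPM scale the UMIs of the summed cells of a library to a common total. DESeq2 1.42.0 was an alternative. On simulated data with 200 genes changed by a log2 fold change of 2, the fit over all 316 cells recovered 196 and 198 (10367 genes). It made 7 and 9 wrong calls. The fit over the subset recovered 191 and 185 (8972 genes, 10 and 3 wrong calls), and the interaction 139 (14256 genes, 4 wrong calls). The simulated dispersion was preset, the changed genes were drawn from those above 10 CPM, and smaller changes were not simulated. Shares were computed with scipy 1.17.1, numpy 2.4.6 and pandas 2.3.3 in python 3.11.15, plots with matplotlib 3.10.9 and near copies with blastn 2.17.0 (at least 95% identity over at least 80% of the length). Gene positions are those of GENCODE for mm10. UMIs per library set the precision: a UMI in the smallest sum, that of WT 2 in the subset, was worth about 1.04 CPM.

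Genes were named by a rule: those of the selection, the 4 markers and up to 4 genes of each list, the 10 largest changes in each direction with at least 10 CPM and separate groups, the 20 genes with the largest fold over other cells, and the 5 smallest p-values of each interaction. Further Hox genes, *Tbx5*, *Lhx1*, *Twist1*, *Alx1*, *Foxc1*, *Meis2*, *Prrx2*, *Sox9*, *Stmn1*, *Hdac1*, *Rpl11* and, in the closing section, *Car3* and *Gadd45g* were named after their values were seen. The cells and lists were chosen with earlier results of these data known. The lists covered somatic and limb, splanchnic, intermediate, paraxial and presomitic mesoderm, caudal and allantoic mesenchyme, neural, neural crest, endothelial, gut, surface ectoderm, notochord, haemoglobin and visceral endoderm markers, and BMP, retinoic acid, fibroblast growth factor, Wnt, hedgehog, Hox, matrix, imprinted, replication, dissociation, glycolysis, grainyhead and sex-linked genes. Reads, velocity and pseudotime results were not analysed here, and the values of 1 called gene are not reported here.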

Additional observations from a re-analysis of the deposited data

Results flagged for a closer look

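The effect of genotype in these cells differed from that in other cells, by the interaction test of edgeR, for the following genes, given as differences of log2 fold changes. For all 316 cells against *Foxf1*-positive cells, the differences were -2.45 for *Krt19*, -2.44 for *Epcam*, -1.41 for *Krt8*, -1.38 for *Krt18* and -0.78 for the thymosin gene *Tmsb4x*. Against all other filtered cells they were -2.43 for *Epcam*, -2.34 for *Krt19*, -1.42 for *Krt18*, -1.42 for *Krt8* and -1.09 for the glucose transporter gene *Slc2a3*. *Epcam* and the keratin genes are expressed by epithelia, and the share of cells set aside for other-tissue markers or depth was 35.6% and 40.0% in WT and 20.2% and 30.6% in *Grhl3*-null. With those cells left out, *Krt18* (-0.47, adjusted p = 0.532), *Krt8* (-0.36, adjusted p = 0.866) and *Krt19* (-0.44, adjusted p = 0.943) did not pass edgeR's test against *Foxf1*-positive cells, while *Tmsb4x* did (-0.51, adjusted p = 9.69e-05). By sex, *Krt8* in the subset had log2 fold changes of 1.88 in male (adjusted p = 0.0563) and -1.07 in female cells (adjusted p = 0.553). The differences from all other cells were then -0.72 for *Krt18* (adjusted p = 9.07e-07), -0.65 for *Krt8* (adjusted p = 0.000219) and -0.67 for *Krt19* (adjusted p = 0.724), and *Slc2a3* was at -0.17 (adjusted p = 0.934). What the set-aside cells contribute was not tested.

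For the marker-low subset against *Foxf1*-positive cells the differences were -2.45 for *2610528A11Rik*, -1.17 for *Hoxb9*, -1.505 for *Hoxc8*, -1.53 for *Col3a1* and -2.15 for *Hoxc9*. Against all other filtered cells they were -2.97 for *Pitx1*, -0.63 for the imprinted gene *Mest*, -1.03 for *Hoxb9*, -2.08 for *2610528A11Rik* and -0.67 for *Meg3*. The sign of *Mest* depended on the cells, since over all 316 cells its differences were 0.15 from all other cells (adjusted p = 0.0392) and 0.25 from *Foxf1*-positive cells, where the subset had -0.29. In *Mest* the effect in the subset was 0.17 (1689 and 1731 CPM in WT, 1923 and 1966 CPM in *Grhl3*-null). The share of male cells moved with these results: 4 and 6 of 38 and 30 WT cells of the subset were male, against 47 and 35 of 87 and 68 *Grhl3*-null cells. The interaction was not tested within a sex.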

How the results depend on the processing

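All comparisons are between 1 pool of embryos per genotype, and the main limits are cell number, 38 and 30 WT cells in the marker-low subset, and the sex of the pooled embryos. Of 29 genes named in the 316 cells, 355 of 386 values under alternatives kept direction and call, and of 56 in the subset 341 of 452 did. Alternatives on the subset were chosen after seeing the data.

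The count of called genes in the 316 cells, 694, was 193 with DESeq2, 217 with no filter on low counts, 196 with possible doublets left out, 199 in male and 290 in female cells, and 514 to 764 without 1 library. In the subset 196 became 49 with DESeq2, 10 in male and 117 in female cells, and 120 to 230 without 1 library, lowest without *Grhl3*-null replicate 1. Interaction calls were 286 to 555 against *Foxf1*-positive cells and 353 to 556 against all others without 1 library, lowest without *Grhl3*-null replicate 1 in both, and 79 and 138 with possible doublets left out. The fit with fewer cells tests fewer genes; other causes were not tested.

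The ratio of shares, 2.09, was 2.40 after thinning, 1.53 with *Prrx1* of at least 1, 2.31 with *Foxf1* of at most 1, 3.34 with possible doublets left out of all cells, 2.92 in male cells, 2.51 for the subset, 4.40 and 2.42 for its male and female cells, and 1.99 to 2.20 without 1 library.

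Signs turned for *Krt19* (0.29, possible doublets left out) and *2610528A11Rik* (1.43, male) in the 316 cells. In male cells of the subset they turned for *Hand2* (-0.26), *Twist1* (-0.072), *Lhx1* (-0.22), *Hoxc8* (1.73), *Hoxb9* (0.25), *Hoxa7* (0.50), *Hoxb4* (-0.59), *Col3a1* (0.44), *Pgk1* (0.030), *Dlk1* (0.30), *Meg3* (0.00099) and *Jun* (0.36). In female cells they turned for *Fgf10* (0.38), *Aldh1a2* (-1.03), *Rspo3* (1.27) and *Xist* (0.34). Without WT replicate 1 they turned for *Hand2* (-0.065), *Fgf10* (0.03), *Tbx5* (-0.30) and *Hoxb4* (-0.11), and without *Grhl3*-null replicate 1 for *Fgf10* (0.10) and *Hoxb4* (-0.075, and 0.18 without WT replicate 2).

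Same-numbered libraries shared only a number (correlation of their deviations 0.0105 in the 316 cells and -0.00155 in the subset), and the fit with a replicate block called 1097 genes (419 higher, 678 lower) and 260 in the subset.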

Other observations

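The 72 cells of the marker-low subset with *Tbx5* but no *Pitx1* had *Hoxb9* at 79.8 CPM and *Osr1* at 45.4 CPM, and the 120 cells with neither gene had *Hoxb9* at 138 CPM and *Osr1* at 80.2 CPM. *Hoxc9* stood at 10.6 and 11.1 CPM and *Hoxc8* at 24.6 and 33.6 CPM. These sums pool both genotypes and were not tested.

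Over all 316 cells, *Car3*, which encodes a carbonic anhydrase, rose from 4.97 and 5.63 CPM to 23.2 and 21.5 CPM (2.07 ± 0.27), and *Gadd45g*, a growth arrest gene, from 4.56 and 10.8 CPM to 23.7 and 40.5 CPM (2.08 ± 0.32). In the subset *Car3* stood at 4.80, 5.204, 22.6 and 5.76 CPM and *Gadd45g* at 4.80, 6.25, 6.54 and 9.46 CPM, and neither passed the test. *Hoxc10* (-5.34), *Hoxa10* (-3.29) and *Isl1* (-2.33), a LIM homeobox gene of hindlimb and pharyngeal mesoderm, fell in all 316 cells. *Isl1* was at 8.80, 7.29, 7.52 and 6.17 CPM in the subset, where *Hoxc10* and *Hoxa10* had too few counts for the test.

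The list counts that follow are read beside the shares of all genes tested, 2.18% higher and 4.51% lower in the 316 cells and 0.758% and 1.43% in the subset, and several are near them. Over all 316 cells edgeR called 8 of 25 tested somatic and limb genes higher, 1 of them *Prrx1*, which chose the cells, and 3 lower, 8 of 27 Hox genes lower, 1 of 20 glycolysis genes higher and 8 lower, 1 of 24 BMP genes in each direction, 3 of 13 retinoic acid genes higher, 1 of 21 fibroblast growth factor genes higher and 3 lower, 1 of 29 Wnt genes higher and 5 lower, 3 of 12 hedgehog genes lower, 4 of 28 matrix genes lower, 3 of 19 imprinted genes higher and 2 lower, 1 of 28 replication genes lower and 3 of 6 dissociation genes lower. It called 4 of 5 surface ectoderm, 2 of 8 presomitic, 2 of 5 caudal and allantoic and 1 of 5 splanchnic genes lower and 2 of 5 neural genes higher. Of 3 neural crest genes it called 0 (2 at an unadjusted p under 0.05, 0 by DESeq2), as of 4 visceral endoderm genes (0 and 0). In the subset 3 of 4 caudal and allantoic genes (*Pitx1*, *Twist2* and *Rspo1*), 1 of 5 presomitic genes and 1 of 5 sex-linked genes fell, 3 sex-linked genes rose, and edgeR called 0 of 5 splanchnic genes (1 at an unadjusted p under 0.05, 0 by DESeq2), 2 surface ectoderm genes (0 and 0) and 2 visceral endoderm genes (0 and 0). Over all 316 cells DESeq2 called 4 somatic and limb genes higher and 1 lower, and 8 Hox and 7 glycolysis genes lower. Of retinoic acid, fibroblast growth factor and replication genes it called 0. It called 2 Wnt, 2 hedgehog, 2 matrix, 1 BMP and 1 dissociation gene lower, and 1 imprinted gene higher and 2 lower. It also called 3 surface ectoderm, 2 caudal and allantoic, 1 presomitic and 1 splanchnic gene lower and 1 neural gene higher.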
